A study of Caenorhabditis elegans with 6 samples.

Results

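The glutathione S-transferase (GST) genes of Caenorhabditis elegans were followed in whole worms exposed to gold nanoparticles. They were taken by symbol, as every probe set whose single gene symbol in the array's annotation is gst- followed by a number. This gave 41 probe sets for 40 genes, of 17118 genes with a probe set of their own, and each gene was read from its probe set with the highest mean over the 6 arrays. The only gene with more than 1 probe set was gst-40. The reference gene table lists 44 such genes, and gst-25, gst-34, gst-35 and gst-37 had no probe set of their own and were not analysed here.

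Wild-type N2 worms at the third larval stage (L3) were compared in 2 groups, with 3 arrays each and 1 dish of about 2000 worms behind each array. The Au-NP group was held for 12 h in 50% K-medium, a dilute salt solution, with citrate-coated gold particles of 4 nm at 5.9 mg/L, which the submitters give as the LC10. It then spent 12 h in the same medium without particles, and RNA was extracted at 24 h. The stage that the worms had reached by then was not checked. For the other group, labelled control, no vehicle is described, and both groups share strain, stated stage and medium. No source used here says that dishes came from separate cultures, so p-values measure at most the spread between dishes. If the RNA was not separate, they measure only the spread between arrays. Since RNA came from whole worms, fewer cells of a type and less RNA per cell cannot be told apart.

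GSTs join the tripeptide glutathione to reactive or foreign molecules, which makes these more soluble and easier to export. Nematodes carry an expanded family of cytosolic GSTs, many of them in tandem arrays of recent copies. Many are induced by oxidative and electrophilic stress through the transcription factor SKN-1, the worm counterpart of the Nrf factors, and gst-4 is the usual reporter of that response. Other GSTs serve fixed metabolic steps, such as the zeta class in tyrosine breakdown.

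Directions below are those of the array labels. The published account of this experiment, as far as it is remembered here and without a check, had abu and pqn genes higher after exposure. By the labels, with the test described below, 6 of 11 abu genes were lower and 0 higher, and 16 of 47 pqn genes were lower and 1 higher. Over all genes, by the same test, 4.45% were lower and 7.09% higher. If the labels had been exchanged, every direction below would be reversed, and this was not tested. Throughout, "higher" means higher in the arrays labelled Au-NP. Pairs of arrays were compared by Pearson's r over all probe sets, which was 0.9957 to 0.9961 among controls and 0.9966 between Au-NP replicates 1 and 2. Au-NP replicate 3 had only 0.9877 and 0.9902 with those 2 arrays, and 0.987 to 0.99 with the controls. Values on the log2 scale differ between genes with the probes as well as with the transcript, so levels are compared only within a gene.

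GST transcripts were higher in the Au-NP arrays in part of the family and lower in none of it. Of the 40 genes, 13 (32.5%) rose at a limma p of 0.05 after Benjamini-Hochberg adjustment over all 22548 probe sets, 0 fell and 27 did not pass. Over all genes, by the same rule, 7.09% rose and 4.45% fell. At an unadjusted limma p under 0.05, 21 GST genes were higher and 0 lower. The share of all genes at an unadjusted p was not counted. The unadjusted counts given here and for the lists below thus have no background beside them. The genes that rose were gst-2, gst-5, gst-6, gst-12, gst-13, gst-16, gst-22, gst-23, gst-24, gst-29, gst-41, gst-42 and gst-43, by 0.31 to 0.87 on the log2 scale (1.24 to 1.83-fold), with a median of 0.58. No GST gene reached a doubling. The counts changed with single arrays left out. Without Au-NP replicates 1, 2 and 3 in turn 8, 2 and 15 genes rose, and without control replicates 1, 2 and 3 in turn 7, 6 and 5 rose. At an equal spread a fit with 1 array fewer has less power, and the part of power in these changes was not tested. The family's median difference ranged between 0.23 and 0.32 in these fits.

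**Figure D1:**
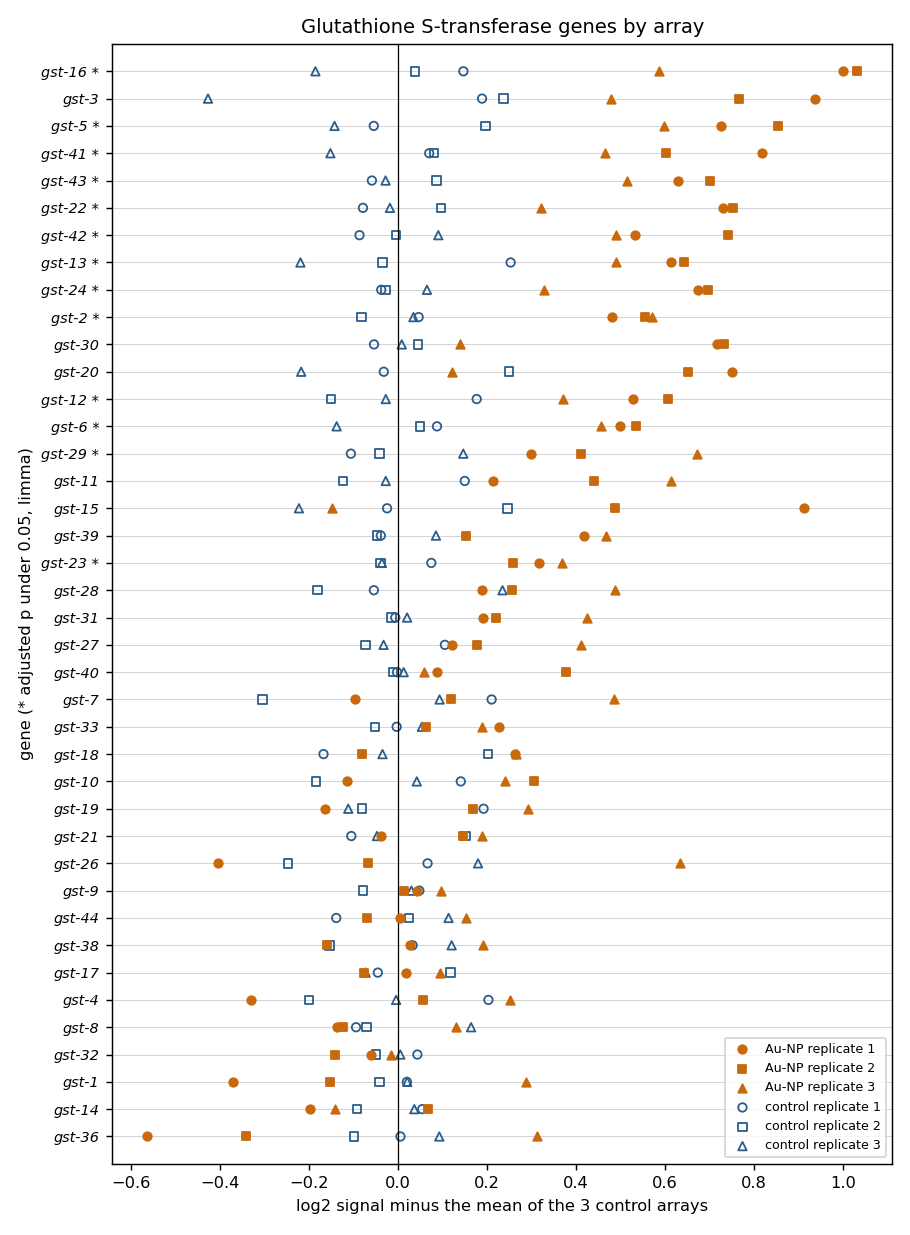
Log2 signal of each of the 40 GST genes in each array, minus the mean of the 3 control arrays (horizontal axis), with genes ordered by the difference between groups. Filled orange symbols are Au-NP arrays, open blue symbols are control arrays, and an asterisk marks the 13 genes with a limma adjusted p under 0.05. The Au-NP symbols lie to the right of the control symbols in the upper part and mix with them in the lower part.

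Over the whole family, the genes that passed included, the log2 difference was positive in 34 of the 40 genes (85%), against 60.5% of all genes, and its median was 0.29 over the family and 0.04 over all genes. The 3 Au-NP values lay wholly above the 3 control values in 21 GST genes and wholly below them in 0, where 30.6% of all genes had groups that did not overlap in either direction. Among only the 27 genes that did not pass, 21 had a positive difference and the median was 0.14. Of these 27, 8 (29.6%) had groups that did not overlap, all with the Au-NP arrays above. The 30.6% of all genes counts both directions and includes genes that passed, so it is not a like measure for these 27. Taken by array against the mean of the controls, the family's median was 0.22, 0.26 and 0.33 in Au-NP replicates 1, 2 and 3, and 0.01, -0.04 and 0.01 in control replicates 1, 2 and 3. Over all genes the same median was 0.06, 0.03 and 0.05 in the Au-NP arrays and -0.03, 0.01 and 0.02 in the control arrays. Each control array is part of the mean it is set against, so its value is drawn toward 0.

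**Figure D2:**
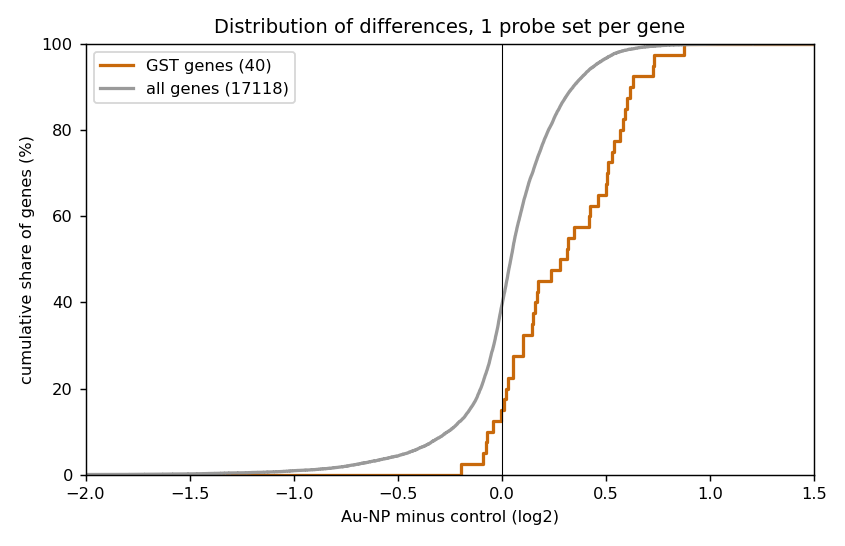
Cumulative share of genes (vertical axis, percent) against the Au-NP minus control difference (horizontal axis, log2), for the 40 GST genes and all 17118 genes. The GST curve lies to the right of the curve of all genes over most of its range, with a median of 0.29 against 0.04, and has no long tail of negative differences.

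Both zeta-class genes rose. These encode maleylacetoacetate isomerases of the tyrosine breakdown pathway. gst-43 had log2 signals of 10.48, 10.55 and 10.36 in Au-NP replicates 1 to 3, against 9.79, 9.93 and 9.82 in control replicates 1 to 3. It rose by 0.61 ± 0.08 (SE), or 1.53-fold, with a limma adjusted p of 0.00787, the smallest of the family. gst-42 had 10.93, 11.13 and 10.88 in the Au-NP arrays, against 10.31, 10.39 and 10.48 in the control arrays. It rose by 0.59 ± 0.10 with a limma adjusted p of 0.0121. In both genes the lowest Au-NP array stood at least 0.40 above the highest control array. The call of gst-43 held with each array left out in turn, and that of gst-42 was lost without Au-NP replicate 2 or control replicate 1.

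The genes gst-5, gst-6, gst-8, gst-10 and gst-24 encode GSTs known to conjugate 4-hydroxynonenal, a toxic aldehyde made when lipids are oxidised. Of these 5, 3 rose and 0 fell, and 4 had a positive difference. Over the whole GST family 32.5% rose and 85% had a positive difference. Over all genes 7.09% rose, 4.45% fell and 60.5% had a positive difference. gst-5 had log2 signals of 9.31, 9.44 and 9.19 in the Au-NP arrays, against 8.53, 8.78 and 8.45 in the control arrays, and rose by 0.73 ± 0.11 (SE; limma adjusted p = 0.0113). gst-6 had 10.29, 10.33 and 10.25 in the Au-NP arrays, against 9.88, 9.84 and 9.66 in the control arrays, and rose by 0.50 ± 0.09 (limma adjusted p = 0.0143). gst-24 had 9.46, 9.49 and 9.12 in the Au-NP arrays, against 8.75, 8.76 and 8.85 in the control arrays, and rose by 0.57 ± 0.11 (limma adjusted p = 0.0215). In all 3 of these genes Au-NP replicate 3 was the lowest exposed array and still lay above every control.

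The other 2 did not pass, and their groups overlapped. gst-10 encodes an enzyme whose overexpression is known to lengthen worm life span. It had log2 signals of 9.14, 9.56 and 9.497 in the Au-NP arrays, against 9.40, 9.07 and 9.30 in the control arrays, a difference of 0.14 with a 95% confidence interval of -0.18 to 0.46. gst-8 had 5.87, 5.88 and 6.14 in the Au-NP arrays, against 5.91, 5.94 and 6.17 in the control arrays, a difference of -0.04 with an interval of -0.30 to 0.22. The calls of gst-5 and gst-6 held with any array left out except Au-NP replicate 2. That of gst-24 held only when the array left out was Au-NP replicate 3.

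No specific role is given here for the remaining 8 genes that rose. The largest rise of the family was that of gst-16, with log2 signals of 7.17, 7.21 and 6.76 in the Au-NP arrays, against 6.32, 6.21 and 5.99 in the control arrays. It rose by 0.87 ± 0.14 (SE), or 1.83-fold (limma adjusted p = 0.0129). gst-2 had 6.61, 6.68 and 6.70 in the Au-NP arrays, against 6.17, 6.05 and 6.16 in the control arrays, and rose by 0.54 ± 0.08 (limma adjusted p = 0.00853). The arrays of each group lay close together for gst-2, whose call held with each array left out. gst-41 had 10.24, 10.02 and 9.88 in the Au-NP arrays, against 9.49, 9.498 and 9.27 in the control arrays, and rose by 0.63 ± 0.11 (limma adjusted p = 0.0169). gst-22 had 9.36, 9.39 and 8.96 in the Au-NP arrays, against 8.56, 8.73 and 8.62 in the control arrays, and rose by 0.60 ± 0.13 (limma adjusted p = 0.0265). The gap between groups was narrower for gst-22, where Au-NP replicate 3 lay lower than the other Au-NP arrays.

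gst-13 had log2 signals of 11.03, 11.05 and 10.90 in the Au-NP arrays, against 10.66, 10.38 and 10.19 in the control arrays, and rose by 0.58 ± 0.13 (SE; limma adjusted p = 0.0276). For gst-12 they were 9.07, 9.14 and 8.91 in the Au-NP arrays, against 8.71, 8.39 and 8.51 in the control arrays, a rise of 0.50 ± 0.11 (limma adjusted p = 0.0282). In both genes control replicate 1 was the highest control. The smallest rise was that of gst-23, with 7.59, 7.53 and 7.64 in the Au-NP arrays, against 7.35, 7.24 and 7.24 in the control arrays, a rise of 0.31 ± 0.08 (limma adjusted p = 0.0379). gst-29 had 5.94, 6.05 and 6.32 in the Au-NP arrays, against 5.54, 5.60 and 5.79 in the control arrays, and rose by 0.46 ± 0.12 (limma adjusted p = 0.0476). For gst-29 the replicate numbered 3 was the highest array of each group.

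Leaving out any of the 6 arrays ended the calls of gst-23 and gst-29. The call of gst-22 held only without Au-NP replicate 3. Those of gst-12 and gst-13 held without Au-NP replicate 3 or control replicate 1, and that of gst-41 without Au-NP replicate 1 or 3. The call of gst-16 was lost without Au-NP replicate 2 or control replicate 3. All 13 differences stayed positive in each setting whose fit held the gene. The probe sets of gst-2, gst-16 and gst-29 were not in the fit above the median level, nor those of gst-16 and gst-41 in the fit without shared probes. Over the whole table the number of probe sets past the threshold also moved, with 2689 in all, 1784, 556 and 4000 without Au-NP replicates 1, 2 and 3 in turn, and 959, 977 and 842 without control replicates 1, 2 and 3.

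**Figure D3:**
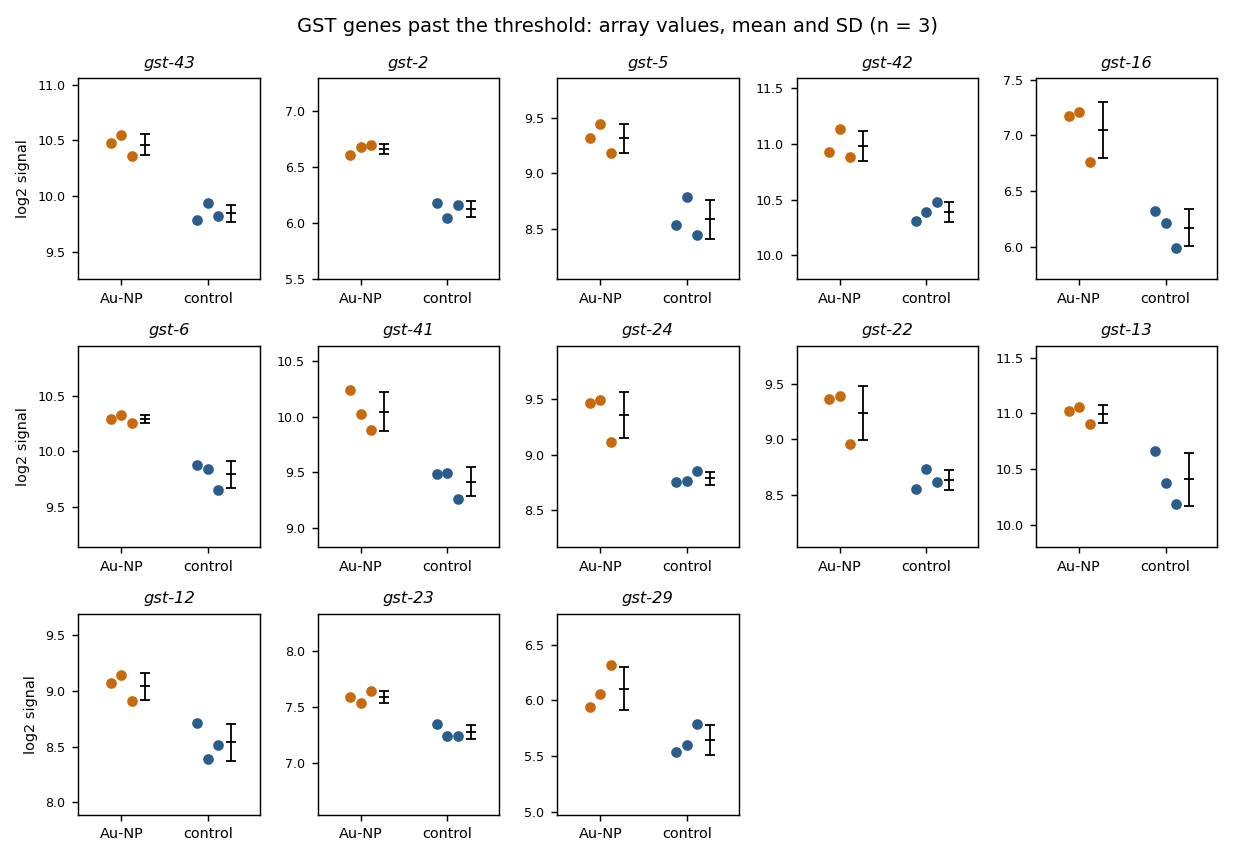
Log2 signal (vertical axis) of the 13 GST genes with a limma adjusted p under 0.05, in 3 Au-NP arrays (orange) and 3 control arrays (blue), with replicates 1 to 3 side by side and the group mean ± SD in black. Each panel spans the same height of the log2 scale, and in every panel the lowest Au-NP point lies above the highest control point.

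Among the 27 genes that did not pass, 8 (29.6%) had groups that did not overlap, where the 30.6% of all genes includes genes that passed. In these 8 the Au-NP arrays lay above. gst-3 had log2 signals of 8.14, 7.97 and 7.68 in the Au-NP arrays, against 7.39, 7.44 and 6.78 in the control arrays, a difference of 0.73 ± 0.20 (SE; limma adjusted p = 0.0549). Control replicate 3 lay well below the other controls for gst-3, and gst-3 passed without Au-NP replicate 3, at a difference of 0.85. gst-30 had 8.81, 8.83 and 8.24 in the Au-NP arrays, against 8.04, 8.14 and 8.11 in the control arrays, a difference of 0.53 ± 0.16 (limma adjusted p = 0.0756). Here Au-NP replicate 3 lay just above the controls, and without it gst-30 passed with a difference of 0.73.

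gst-11 had log2 signals of 6.93, 7.16 and 7.33 in the Au-NP arrays, against 6.86, 6.59 and 6.69 in the control arrays, a difference of 0.42 ± 0.12 (SE; limma adjusted p = 0.0678). gst-39 had 8.60, 8.34 and 8.65 in the Au-NP arrays, against 8.14, 8.13 and 8.27 in the control arrays, a difference of 0.35 ± 0.10 (limma adjusted p = 0.0713). gst-31 had 5.96, 5.99 and 6.19 in the Au-NP arrays, against 5.76, 5.75 and 5.79 in the control arrays, a difference of 0.28 ± 0.09 (limma adjusted p = 0.0793). In these 3 genes Au-NP replicate 3 was the highest array of all. The groups of gst-27, gst-33 and gst-40 were apart by less than 0.05 at their nearest arrays. gst-27 had 10.31, 10.37 and 10.60 in the Au-NP arrays, against 10.30, 10.12 and 10.16 in the control arrays. gst-33 had 6.70, 6.54 and 6.66 in the Au-NP arrays, against 6.47, 6.42 and 6.53 in the control arrays. gst-40 had 7.10, 7.39 and 7.07 in the Au-NP arrays, against 7.01, 7.004 and 7.03 in the control arrays, so that its difference of 0.17 came mostly from Au-NP replicate 2. The second probe set of gst-40 had a difference of 0.08, and its groups overlapped.

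No difference was detectable in the SKN-1 reporter gst-4. Its log2 signals were 7.82, 8.21 and 8.41 in the Au-NP arrays, against 8.36, 7.95 and 8.15 in the control arrays, a difference of -0.01 with a 95% confidence interval of -0.39 to 0.38. The spread within each group exceeded the difference between the group means, with an SD of 0.30 among Au-NP arrays and 0.20 among controls (n = 3 each). The interval for gst-4 holds differences as large as the rise of gst-23 but none as large as that of gst-5.

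Only 6 genes had a negative difference, gst-36, gst-14, gst-1, gst-32, gst-8 and gst-4, and their limma adjusted p lay between 0.629 and 0.987. gst-36 had log2 signals of 10.69, 10.91 and 11.56 in the Au-NP arrays, against 11.25, 11.15 and 11.34 in the control arrays, a difference of -0.20 with a 95% confidence interval of -0.68 to 0.29. Its Au-NP arrays lay on both sides of the controls. Without Au-NP replicate 3 it was lower by a called difference of -0.45, the only GST gene called lower in any setting. gst-1, which encodes a pi-class GST, had 12.28, 12.50 and 12.94 in the Au-NP arrays, against 12.67, 12.61 and 12.68 in the control arrays, a difference of -0.08. The same array stood above the controls for gst-1, while the other Au-NP arrays stood below them. gst-14 had 6.32, 6.58 and 6.37 in the Au-NP arrays, against 6.57, 6.43 and 6.55 in the control arrays, a difference of -0.09.

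The remaining genes that did not pass were gst-7, gst-9, gst-15, gst-17, gst-18, gst-19, gst-20, gst-21, gst-26, gst-28, gst-32, gst-38 and gst-44, all with groups that overlapped. Of these gst-20 had the largest difference, 0.51 ± 0.19 (SE; limma adjusted p = 0.131), and gst-15 was next at 0.42 ± 0.26. gst-15 and gst-26 spread most widely among the Au-NP arrays, with an SD of 0.53 each (n = 3), and gst-26 had 8.11, 8.45 and 9.15 in the Au-NP arrays, against 8.58, 8.27 and 8.69 in the control arrays. The means of gst-9, gst-17, gst-21, gst-32 and gst-44 lay at or below the lower quartile of all probe sets, 5.32 on the log2 scale, and 0 of these 5 passed. RMA pulls such signals toward the background and no detection calls were read, so a difference in those 5 genes could have been missed.

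Au-NP replicate 3 took different places within the family. It was the lowest Au-NP array in 10 of the 13 genes that rose and the highest in 3. In the 27 that did not pass it was the lowest in 5 and the highest in 19. Over all genes it was the lowest in 39.7% and the highest in 35.8%. The split of the family into 13 and 27 itself rests on these values, so these counts are a description.

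Many GST genes lie next to each other, and the reference gene table shows 5 runs of GST genes with no other protein-coding gene between them. The longest run holds gst-20, gst-24, gst-15, gst-14, gst-12, gst-16, gst-19, gst-17 and gst-18, in that order. Of its 9 genes gst-24, gst-12 and gst-16 rose, and the differences ran between -0.09 for gst-14 and 0.87 for gst-16. In the run gst-26, gst-27, gst-28, gst-29, gst-39 and gst-31 all 6 differences were positive, between 0.05 and 0.46, and gst-29 rose. In the run gst-3, gst-2 and gst-4, gst-2 rose, and the difference was 0.73 for gst-3 and -0.01 for gst-4. In gst-6, gst-7 and gst-8, gst-6 rose. In the run gst-32, gst-34 and gst-35 only gst-32 was measured, with a difference of -0.07 that did not pass. Of the 22 measured genes in runs 6 rose, and of the 18 outside them 7 rose, where 7.09% of all genes rose. Genes that rose were thus found in both kinds of place. Neighbouring copies can be alike in sequence, and 7 of the 40 probe sets used (those of gst-9, gst-16, gst-19, gst-20, gst-27, gst-33 and gst-41) carry a suffix that marks probes shared between sequences. Among the genes that rose these were gst-16 and gst-41. With such probe sets left out, 11 of 33 GST genes rose. The share of all genes that rose in that fit was not counted.

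**Figure D4:**
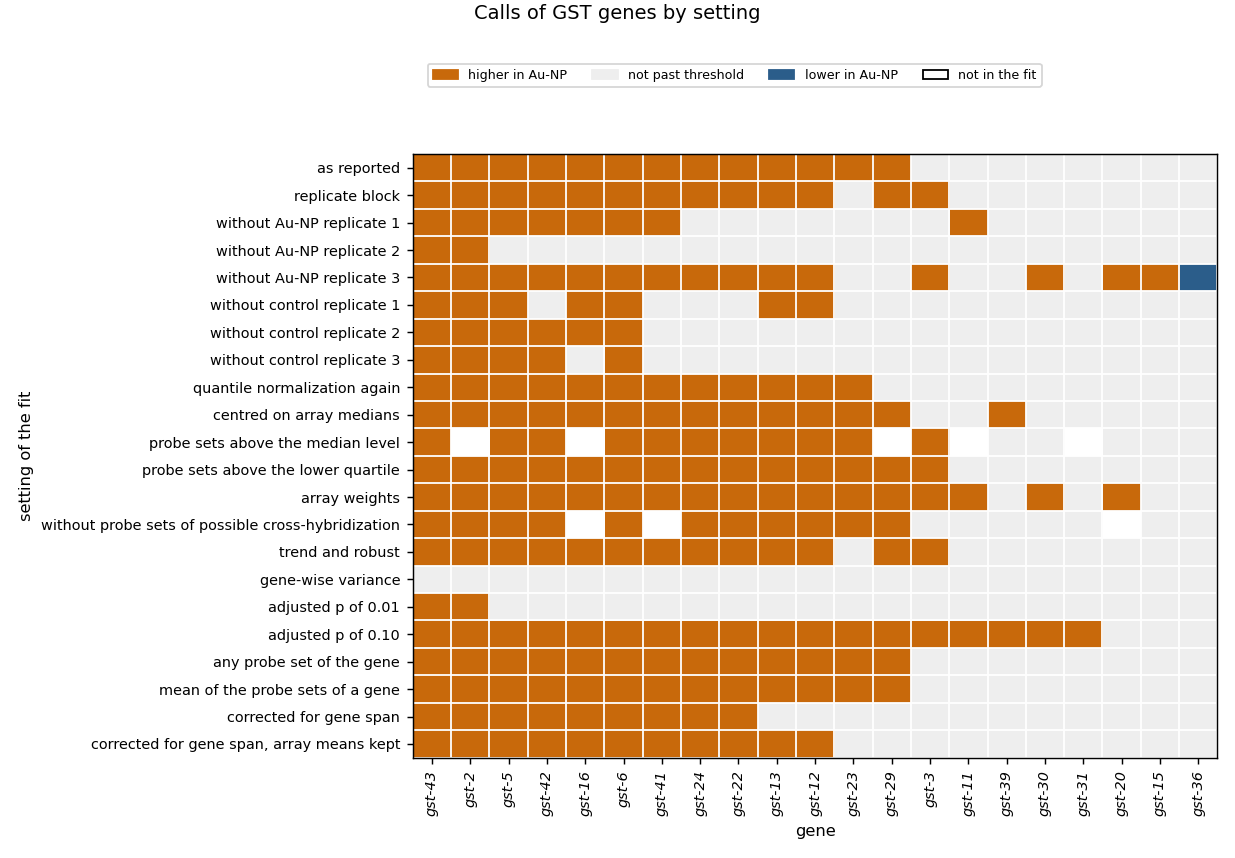
Calls of GST genes (horizontal axis) under each setting of the fit (vertical axis), for the 21 genes called in at least 1 setting, ordered by their p as reported. Orange marks a gene called higher in Au-NP, grey one not past the threshold, blue one called lower, and white one that was not in that fit. gst-43 and gst-2 were called with each array left out, and gst-36 was called lower without Au-NP replicate 3.

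The other genes of glutathione metabolism were mixed in direction. In a list of 33 genes for glutathione synthesis, reduction, peroxidases, glutaredoxins, omega and kappa transferases and export, 31 were measured. Of these 4 rose and 3 fell (7 and 5 at an unadjusted limma p under 0.05), where 7.09% of all genes rose and 4.45% fell. The median difference was 0.08, where that over all genes was 0.04. The rises were those of glrx-21 and glrx-5, which encode glutaredoxins, at 0.41 ± 0.09 and 0.37 ± 0.08 (SE, log2), of the kappa-class transferase gene gstk-1 at 0.36 ± 0.09, and of the glutathione peroxidase gene gpx-3 at 0.29 ± 0.07. Their limma adjusted p lay between 0.0276 and 0.0423. gpx-3 was the tightest of them, with log2 signals of 9.25, 9.28 and 9.26 in the Au-NP arrays, against 8.97, 8.98 and 8.97 in the control arrays. Of the list, 0 genes passed as higher without Au-NP replicate 2, without any 1 of the 3 controls, or after either form of the correction for gene span given below. 3 genes of the list just missed the threshold with groups that did not overlap, and they are named after their values were seen. They were gpx-6 at 0.67, the omega-class gene gsto-1 at 0.55 and gpx-7 at 0.44 (limma adjusted p = 0.0519, 0.0534 and 0.0516).

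The genes that fell were 2 of export and 1 omega-class transferase. hmt-1, an ABC transporter gene needed for heavy-metal tolerance, had log2 signals of 7.80, 7.47 and 7.61 in the Au-NP arrays, against 8.52, 8.40 and 8.23 in the control arrays, and fell by 0.76 ± 0.11 (SE; limma adjusted p = 0.0102). The omega-class transferase gene gsto-3 had 9.12, 9.05 and 9.07 in the Au-NP arrays, against 9.69, 9.53 and 9.69 in the control arrays, and fell by 0.55 ± 0.08 (limma adjusted p = 0.00849). mrp-7, which encodes an exporter of the multidrug-resistance type, fell by 0.56 ± 0.12 (limma adjusted p = 0.0293). The probe sets of hmt-1 and mrp-7 carry the suffix of shared probes, and 1 gene fell when such probe sets were left out. The rate-limiting enzyme of glutathione synthesis, gcs-1, had a difference of -0.01 with a 95% confidence interval of -0.22 to 0.21, and the glutathione reductase gene gsr-1 had 0.01 with an interval of -0.38 to 0.41.

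**Figure D5:**
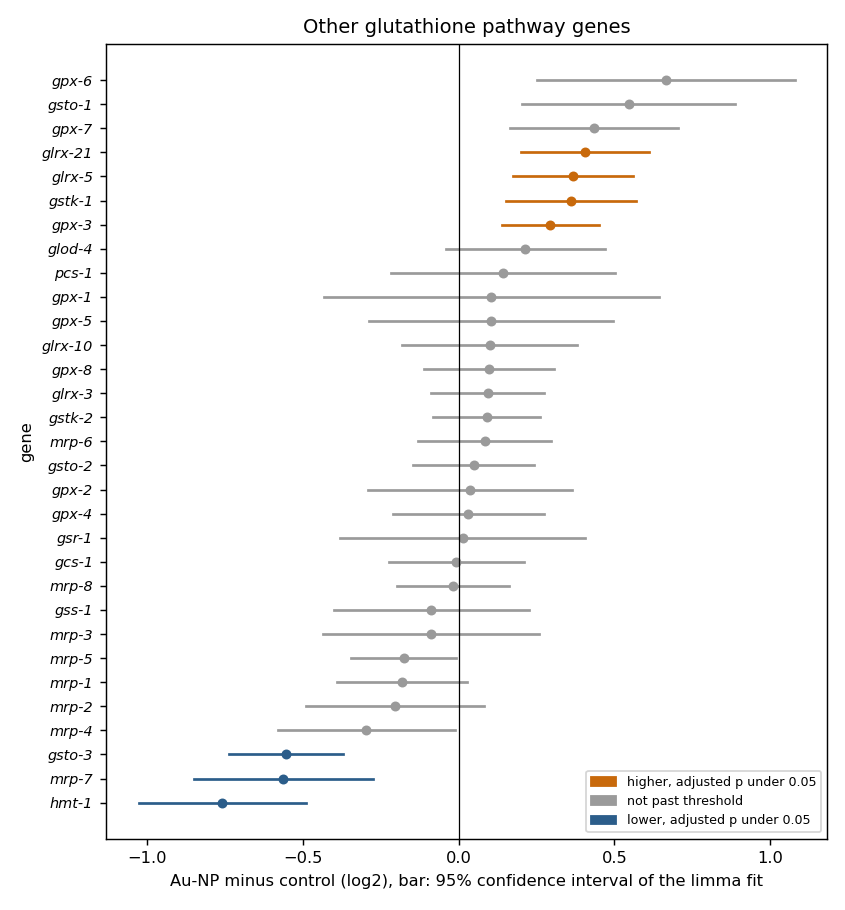
Au-NP minus control difference (horizontal axis, log2) of the 31 measured genes of the glutathione list, with the 95% confidence interval of the limma fit. Orange marks the 4 genes that rose (glrx-21, glrx-5, gstk-1, gpx-3), blue the 3 that fell (gsto-3, mrp-7, hmt-1), and grey the rest, among them gcs-1 and gsr-1 near 0.

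Of 14 measured genes, skn-1 and 13 known to act on SKN-1, 1 rose and 1 fell (4 and 2 at an unadjusted limma p under 0.05), close to the shares over all genes of 7.09% and 4.45%. pmk-1, the p38 kinase that activates SKN-1, rose by 0.34 ± 0.08 (SE, log2; limma adjusted p = 0.0356). gsk-3, a kinase that restrains SKN-1, fell by 0.40 ± 0.10 (limma adjusted p = 0.0439). The kinase genes akt-1 and sgk-1, which also restrain SKN-1 and are named after their values were seen, had differences of 0.26 and 0.33 that did not pass (limma adjusted p = 0.0508 and 0.128), with every Au-NP array above every control. skn-1 itself had log2 signals of 9.31, 9.49 and 9.58 in the Au-NP arrays, against 10.12, 9.87 and 9.66 in the control arrays, a difference of -0.42 ± 0.13 that did not pass (limma adjusted p = 0.0841). Every Au-NP array lay below every control for skn-1. wdr-23, whose product targets SKN-1 for degradation, had a difference of 0.19 ± 0.07 (limma adjusted p = 0.130). Among 8 measured SKN-1 targets outside the gst genes 1 rose and 0 fell by limma, and 3 were higher and 0 lower at an unadjusted p under 0.05. The target that rose was sdz-8, with log2 signals of 10.02, 9.89 and 9.998 in the Au-NP arrays, against 9.47, 9.38 and 9.57 in the control arrays, a rise of 0.49 ± 0.08 (limma adjusted p = 0.0132).

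Markers of tissues were read beside the GST genes. Of 9 intestine markers 0 rose and 1 fell (1 and 1 at an unadjusted limma p under 0.05), act-5 at -0.85. The mean log2 signal of the 9 was 11.28 to 11.34 across the Au-NP arrays and 11.31 to 11.40 across the control arrays. Of 7 body-wall muscle markers 3 fell, of 6 pharynx markers 3, of 11 germ line and oocyte markers 3 and of 8 neuron markers 1, and 0 rose in each, where 4.45% of all genes fell and 7.09% rose. At an unadjusted limma p under 0.05, 4 muscle, 3 pharynx, 6 germ line and 1 neuron markers were lower, and 1, 2, 0 and 2 markers of these lists in turn were higher. The mean of the muscle markers was 12.03 to 12.31 in the Au-NP arrays and 12.48 to 12.55 in the control arrays, that of the pharynx markers 9.10 to 9.36 in the Au-NP arrays and 9.69 to 9.89 in the control arrays, and that of the germ line markers 8.27 to 8.82 in the Au-NP arrays and 8.87 to 9.18 in the control arrays. Of 7 hypodermis and 7 sperm markers 0 rose and 0 fell (0 and 1, and 0 and 0, at an unadjusted p under 0.05). The mean of the hypodermis markers was 10.59 to 10.93 in the Au-NP arrays and 10.79 to 11.17 in the control arrays. That of the sperm markers was 8.02 to 9.23 in the Au-NP arrays and 8.67 to 9.16 in the control arrays. In each of the 7 sperm markers Au-NP replicate 3 was the lowest Au-NP array. For msp-3 it had 10.89, against 12.26 and 12.38 in Au-NP replicates 1 and 2. The part of these shifts in the GST result was not tested.

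GST genes are short, with a median span of 1251.5 bp including introns against 2185 bp over all genes, and over all genes those that rose had a median span of 1656 bp and those that fell 5338 bp. The muscle and pharynx markers that fell (myo-3, unc-54, unc-15, myo-1, myo-2 and pha-4) span 6594 to 8112 bp. The other markers of these tissues, which did not pass, span 1166 to 3143 bp, except lev-11 at 9926 bp. The germ line markers that fell (gld-1, pgl-3 and glh-1) span 2542 to 3059 bp. The part of span in these falls was not tested. Within the GST family, the genes that rose had a median span of 1252 bp and the others 1250 bp. With the trend with span removed from every array, 9 of the 40 genes rose and 0 fell, and the median difference of the family was 0.18, where that of all probe sets in that fit was -0.02. The calls lost were those of gst-12, gst-13, gst-23 and gst-29. Among all called probe sets the share that were higher was 52.4% before this correction, over 22548 probe sets. After it the share was 40.2%, over the 20701 with a known span. Each fit had its own adjustment and set of probe sets, so these shares are not a like measure. When the correction kept the mean of each array, a form added after seeing the data, that share was 54.5%, 11 GST genes rose, gst-12 and gst-13 among them, and the family's median was 0.22.

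Genes that followed gst-16, the GST gene with the largest rise, were sought by Pearson's r over the 6 arrays, 1 probe set per gene. The closest 5 were exos-3, spcs-3, Y106G6D.6, eakr-3 and acd-3, with r between 0.9971 and 0.9997. With 6 arrays in 2 groups such values are common, and 607 genes had an r above 0.95. exos-3 had a difference of 0.51, spcs-3 of 0.39, Y106G6D.6 of 0.65, eakr-3 of 0.17 and acd-3 of 0.24.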

How the data were processed

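Signals came from Affymetrix arrays hybridised with biotin-labelled cRNA made from 2 µg of total RNA, per the labels' protocols. The deposited values are log2 signals, 1 per probe set and array, for which the submitters' processing notes name RMA and, without its role, Partek 6.4. The scale is read from the values (3.44 to 15.2). RMA quantile-normalizes the arrays together and compresses small signals. Genome build and scanner files were not given in the sources used here.

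Of 22625 probe sets, 77 Affymetrix controls were left out and no filter on level was applied. The platform annotation gave 20766 probe sets 1 gene symbol, 887 several and 895 none. Of the first, 20701 matched a gene table of assembly WBcel235 that gave spans and neighbours.

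The test was limma's moderated one (version 3.58.1, R 4.3.3), two-sided, for Au-NP minus control with only the group in the model. Its p-values were adjusted by Benjamini and Hochberg's method over 22548 probe sets, with a threshold of 0.05, 4 residual and 3.391 prior degrees of freedom. Between 4 and 15 values were identical in any 2 arrays, so no column was copied, and the arrays were counted as separate samples as labelled. This does not show that their RNA was separate. The fit was tested on simulated data, in 5 runs. It recovered 35% of changes of 0.5 on the log2 scale, 80.3% of changes of 1 and 95.3% of changes of 2. The changed probe sets of these sizes numbered 331, 330 and 339, of 22548, fewer than the 2689 called in the data. Recovery depends on how many probe sets change, so these rates need not hold for the data. There were 7.4 false calls per run. In the simulation a change of 0.5 was thus more often missed than found.

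Members and lists were chosen with earlier results of these data known. Array values are given for GST genes past the threshold, the 8 further ones with the smallest p whose groups do not overlap, the 4-hydroxynonenal set, gst-1, gst-4 and gst-42, and the 3 most negative. gst-15, gst-20, gst-26, gpx-6, gpx-7, gsto-1, akt-1 and sgk-1 were added after their values were seen. In the other lists (glutathione pathway, SKN-1 regulation, SKN-1 targets) genes past the threshold are named with skn-1, wdr-23, gcs-1 and gsr-1.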

Additional observations from a re-analysis of the deposited data

How the results depend on the processing

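All 13 GST genes that rose kept a positive difference in the fits that held them, and 167 of 229 such values kept the call while 62 missed it. The count of higher GST genes ranged between 2 and 15 with single arrays left out, that of lower ones between 0 and 1, and the count of all called probe sets between 556 and 4000. The family's median difference ranged between 0.23 and 0.32 in those fits. It was 0.42 and 0.35 among probe sets above the median and the lower quartile of level, 0.18 after the correction for gene span, and 0.22 when that correction kept the array means, an alternative chosen after seeing the data. With ordinary gene-wise variance, which has 4 degrees of freedom, 0 GST genes passed (17 higher and 0 lower at an unadjusted p under 0.05) and 72 probe sets in all, and at an adjusted p of 0.01 it was 2 GST genes and 504 probe sets. At an adjusted p of 0.10 all called probe sets were 4263, with array weights 4186, and without probe sets of possible cross-hybridization 1625. The glutathione list ranged between 0 and 5 higher and between 2 and 4 lower with arrays left out. It had 7 higher above the median or lower quartile of level, with array weights or at 0.10. It had 1 higher and 0 lower with gene-wise variance, 0 higher and 1 lower at 0.01, 0 higher after either correction for span, and 1 lower without shared probes. Differences near 0 changed sign. gst-4 had 0.00394 after a second quantile normalization, 0.00845 after median centring and 0.0129 with array weights. With single arrays left out gst-4 ranged between -0.136 and 0.155, gst-8 between -0.131 (without Au-NP replicate 3) and 0.0390 (without control replicate 3), and gst-1 between -0.261 and 0.0677 (without Au-NP replicates 3 and 1). The cause of these changes was not tested.

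Replicate numbers were tried as a replicate block. Deviations of same-numbered arrays from their group means correlated at -0.33, 0.43 and 0.22 for numbers 1, 2 and 3. Au-NP replicates 1 and 2 both correlated best with control replicate 2, and Au-NP replicate 3 with control replicate 1. With 3 arrays in each group, such values cannot show whether same-numbered arrays were paired. With the block 13 GST genes rose and 0 fell, 12 of them the same, and 2273 probe sets were called. Precision is limited by the 6 arrays, and signal over background was not available.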
